A study of Mus musculus with 12 samples.

Results

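Glutathione and cystine uptake genes are described here as a set of 10 mouse genes, Slc7a11, Gclc, Gclm, Gss, Gsr, Gpx1, Gpx4, Gstm1, Gsta4 and Mgst1, which were taken by symbol from 47937 genes counted by RNA sequencing. Marrow of young C57BL/6 mice had been cultured with CSF-1 to give macrophages, and each of 4 conditions had 3 libraries. Cells were left at rest (M0) or received IFNγ at 50 ng/ml together with LPS at 20 ng/ml over 18 h, and both states were also run with the DGAT1 inhibitor T863 (DGAT1i, 50 μM, 18 h). DGAT1 is an enzyme that makes triacylglycerol, and the design asks how its inhibition alters resting and stimulated cells. The labels name no genetic change, and a vehicle for the groups without DGAT1i is not named in the sources used here. The notes of 2 of the M0 + DGAT1i libraries give the inhibitor other compound numbers, and these libraries were kept as T863 because their source labels say so. The labels do not say whether the 3 samples of a group came from separate mice or cultures, so p-values measure the spread between these samples.

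Glutathione is a tripeptide of glutamate, cysteine and glycine that serves as the main soluble thiol of the cell. Cystine enters the cell in exchange for glutamate, is reduced to cysteine, and is built into glutathione by glutamate-cysteine ligase and then glutathione synthetase. Peroxidases oxidise glutathione to remove hydrogen peroxide and lipid peroxides, glutathione reductase restores it with NADPH, and transferases attach it to reactive compounds. Activated macrophages make reactive oxygen and nitrogen species, and this pathway is known as part of their own protection.

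Library totals ranged from 4996014 to 6621671 reads. Values are given as CPM, the read count relative to the size of the library, after TMM scaling, which corrects for differences in composition. A value of 1 CPM stood for 4.28 to 7.58 reads. Changes are differences in log2 CPM with a standard error (SE), and each adjusted p comes from the quasi-likelihood test of edgeR, with Benjamini-Hochberg adjustment over the 11760 genes with enough reads. The correlation of log2 CPM between libraries of a group was 0.988 to 0.992, a measure that would not show a modest departure of 1 library. All 10 macrophage markers had reads in each group, and their sum was 13615 to 14812 CPM in M0, 16509 to 18506 with DGAT1i, 8622 to 9226 in IFNγ + LPS and 8137 to 9082 with both. Lyz2 held most of this sum in the resting groups. Its mean was 9641 CPM in M0, 13045 in M0 with DGAT1i, 2956 in IFNγ + LPS and 3107 with both. Adgre1 went the other way with stimulation, from 1316 ± 19.2 to 2706 ± 189 CPM (SD, n = 3). By IFNγ + LPS 7 of the 10 macrophage markers fell and 3 rose, where 36.2% of all genes fell and 37.1% rose. By DGAT1i in IFNγ + LPS 4 fell, Itgam, C1qa, Adgre1 and Fcgr1, and 1 rose, Cd68, where 16.3% of all genes fell and 13.5% rose. By DGAT1i in M0 3 fell, Adgre1, Cd14 and C1qa, and 3 rose, Cd68, Lyz2 and Mertk, where 13.4% of all genes fell and 11.0% rose. Pf4, a megakaryocyte marker, fell with IFNγ + LPS (log2 change -1.56, edgeR adjusted p = 7.00e-29). The summed level of 10 activation markers was 27934 to 29688 CPM in IFNγ + LPS against 47.8 to 52.4 CPM in M0 and 34.3 to 40.1 CPM in M0 with DGAT1i. With DGAT1i in IFNγ + LPS it was lower, at 24798 to 25438 CPM, and 1 of the 10, Nos2, rose and 5 fell, among them Cxcl10 (log2 change -0.86, edgeR adjusted p = 3.72e-20) and Marco (log2 change -1.89, edgeR adjusted p = 0.00439). Markers of neutrophils and their precursors (12 genes) summed to 17.1 to 27.9 CPM in IFNγ + LPS and 64.9 to 84.1 CPM in IFNγ + LPS with DGAT1i. Elane, Mpo, Ly6g and Retnlg had no reads in the former, and Elane, Prtn3, Ly6g and Retnlg none in the latter. Between these groups 4 of the 5 markers tested rose and 0 fell, where 13.5% of all genes rose and 16.3% fell. S100a8 and S100a9 held most of the latter sum. They went from 9.13 ± 1.19 to 34.5 ± 6.26 CPM and from 7.78 ± 2.97 to 25.8 ± 7.18 CPM. Ngp and Ltf also rose, and Mmp8 had a log2 change of -0.54 that did not pass the test. In M0 the same list summed to 37.8 to 46.1 CPM, and to 29.2 to 37.3 CPM with DGAT1i. Dendritic cell markers (5 genes, Siglech without reads in both stimulated groups) summed to 0.133 to 0.835 CPM in M0, 12 to 16.8 CPM in IFNγ + LPS and 3.13 to 4.12 CPM in IFNγ + LPS with DGAT1i. Stromal cell markers (8 genes) summed to 0.418 to 1.33 CPM in M0 and 4.12 to 6.74 CPM in IFNγ + LPS. With DGAT1i they summed to 0.132 to 0.664 CPM in M0 and 2.26 to 3.27 CPM in IFNγ + LPS. Pecam1, the only one tested, rose with stimulation (log2 change 3.73, edgeR adjusted p = 5.17e-09). Lymphocyte markers stayed at or under 2.66 CPM and mast cell and basophil markers at or under 0.233 CPM in every library. The part of other cells in the results below was not tested, and in bulk RNA fewer cells of a type and less RNA per cell cannot be told apart.

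Promoter sequence is shown for the members in which a searched motif was found. Of the 10 members, 7 had an entry in the RefSeq promoter table (GRCm38.p6), and Gclc, Gsr and Gsta4 had none. A pair of letter patterns was searched on both strands in the 250 bases before each start site. The core of the antioxidant response element, through which the factor NRF2 acts, was written as TGACNNNGC and occurred in 10.2% of 32851 promoters and in 2 of the 12 promoter entries of these 7 members. An element of the ATF4 type, known from genes of the amino acid response, was written as TGATGNAA and occurred in 3.45% of all promoters and in 1 of the 12 entries. Gss and Gstm1, which also rose with DGAT1i in at least 1 state, had entries without a match, as had Gpx1 and Gpx4. The matches printed do not overlap each other, and a match describes the sequence and is not evidence of binding. Capitals mark the matches below, and each sequence runs 5′ to 3′ on the strand of the gene.

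In Slc7a11 (chr3:50443614-50443863, minus strand) the ATF4-type pattern occurred on both strands, 66 and 47 bases before the start.
Slc7a11: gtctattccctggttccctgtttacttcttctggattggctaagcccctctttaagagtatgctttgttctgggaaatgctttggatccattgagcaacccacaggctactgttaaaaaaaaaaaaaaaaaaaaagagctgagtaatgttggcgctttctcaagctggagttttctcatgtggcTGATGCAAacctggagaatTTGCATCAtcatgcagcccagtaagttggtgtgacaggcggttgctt
In Gclm (chr3:122245307-122245556, plus strand) the antioxidant core occurred on the reverse strand, 134 bases before the start.
Gclm: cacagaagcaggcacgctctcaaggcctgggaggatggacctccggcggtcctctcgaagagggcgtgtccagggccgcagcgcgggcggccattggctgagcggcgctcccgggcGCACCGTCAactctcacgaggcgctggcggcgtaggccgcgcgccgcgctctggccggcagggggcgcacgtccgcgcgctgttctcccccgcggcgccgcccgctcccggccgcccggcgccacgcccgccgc
In Mgst1 the antioxidant core also occurred on the reverse strand, 56 bases before a RefSeq start, and only the bases around it are shown (chr6:138140461-138140489, plus strand). That start lies downstream of the gene start in GENCODE at 138140316, so by GENCODE the match is inside the gene.
Mgst1: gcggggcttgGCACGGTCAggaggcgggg

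Most of the members with enough reads were higher in stimulated than in resting cells, and most were higher again with DGAT1i. Of the 9 members tested, 7 passed the test between IFNγ + LPS and M0, against 73.3% of all genes tested, so this count is near the background. Of these, 6 rose, where 37.1% of all genes rose, and 1, Gpx1, fell, where 36.2% fell. The same 7 did not overlap between the groups, against 75.4% of all genes. DGAT1i in IFNγ + LPS changed 8 of the 9 members, against 29.8% of all genes. It raised 7 of the 9 members against 13.5% of all genes, and lowered Gpx1 against 16.3% of all genes. In M0, DGAT1i changed 8 of the 9 members, against 24.4% of all genes. It raised 6 of the 9 members against 11.0% of all genes, and lowered Gpx1 and Gpx4 against 13.4% of all genes. The median log2 change of the members was 1.28 by IFNγ + LPS, 0.58 by DGAT1i in IFNγ + LPS and 0.57 by DGAT1i in M0, where the median of all genes was 0.01, -0.01 and 0.00. The first 2 comparisons share the IFNγ + LPS libraries, and the first and the third share the M0 libraries. With library size as the only scaling the median of all genes moved to -0.46 by IFNγ + LPS and to -0.43 by IFNγ + LPS in the presence of DGAT1i, and the members split into 6 higher and 3 lower in the first. That shift is common to all genes, and changes by stimulation are given relative to the TMM scaling.

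**Figure D1:**
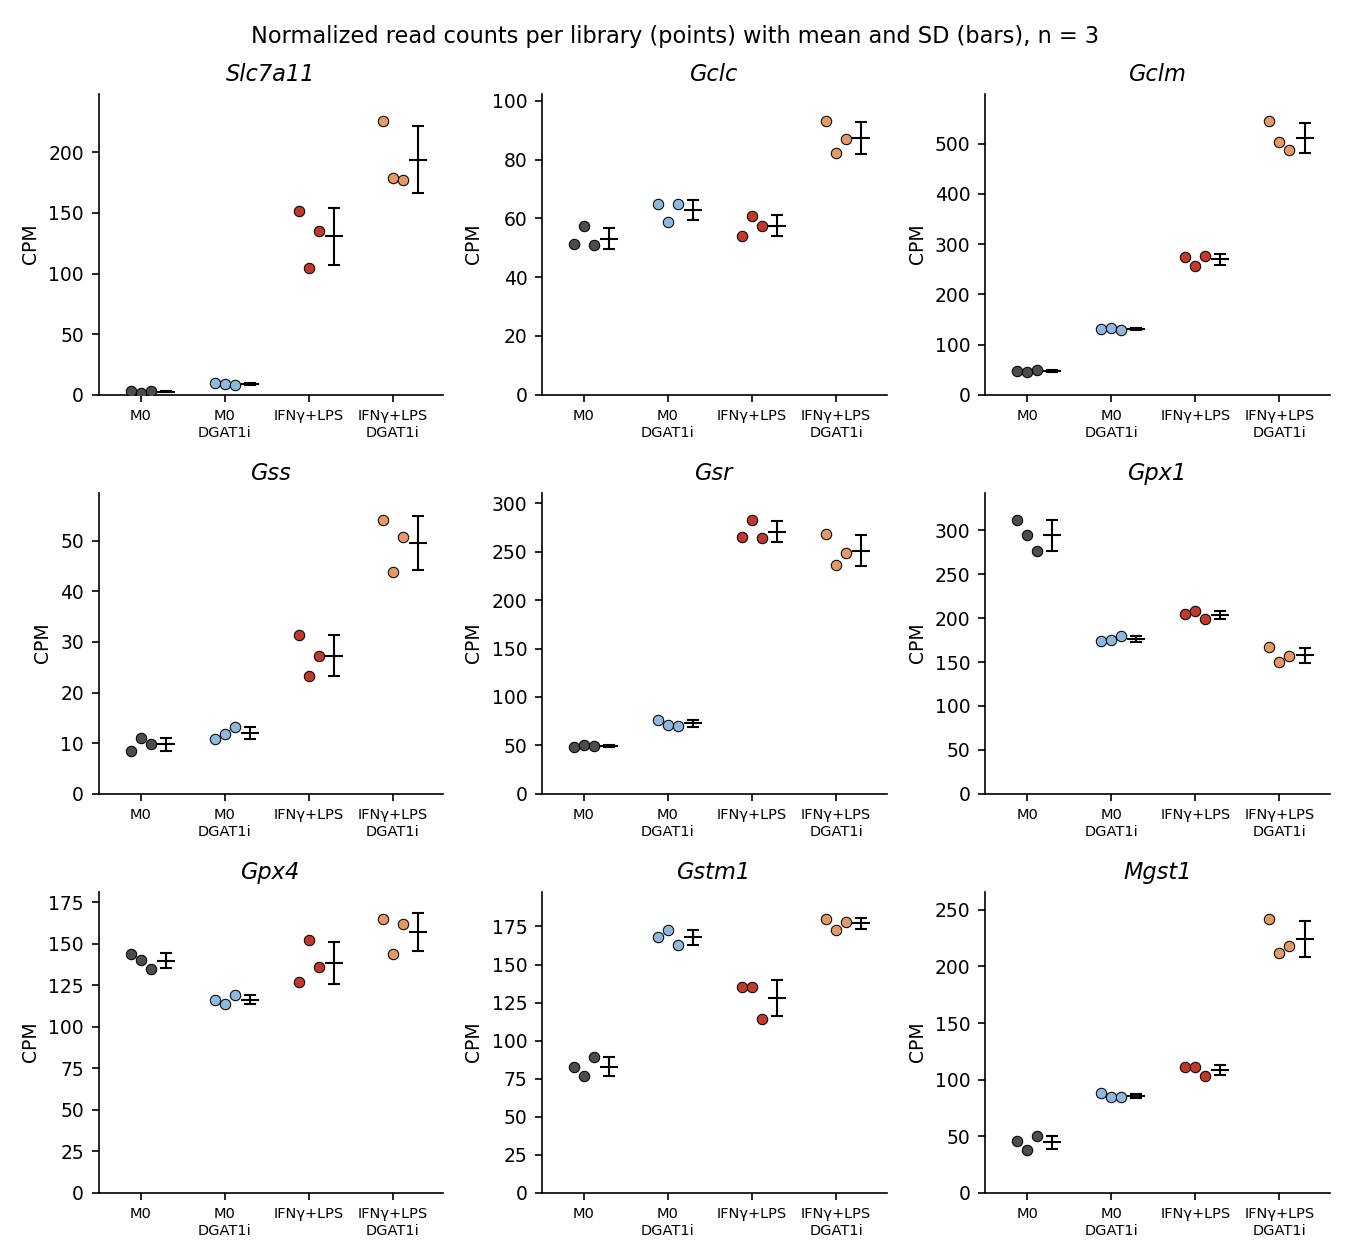
Normalized read counts (CPM, linear axes from 0) of the 9 members tested, with 1 point per library in 4 groups of 3 and a bar for the mean and SD beside them. Slc7a11 lies between 1.86 and 3.06 CPM in M0 and between 177 and 226 CPM in IFNγ + LPS with DGAT1i, and Gpx1 has its highest values in M0, at 276 to 312 CPM.

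Cystine uptake had the largest log2 rise of the 9 members tested by IFNγ + LPS and by DGAT1i in M0. Its gene Slc7a11 (ENSMUSG00000027737, chr3:49892526-50443614 on GRCm38, minus strand) encodes the transport subunit of the cystine-glutamate antiporter. The M0 libraries held 2.91, 1.86 and 3.06 CPM, from 14 to 22 reads each, and the IFNγ + LPS libraries 152, 105 and 135 CPM. With DGAT1i the values were 9.96, 8.94 and 8.45 CPM in M0 and 226, 179 and 177 CPM in IFNγ + LPS. The 4 groups did not overlap and stood in the order M0, M0 with DGAT1i, IFNγ + LPS, and IFNγ + LPS with DGAT1i. Stimulation raised the level 49.7-fold (log2 change 5.63, SE 0.24, edgeR adjusted p = 2.70e-09). DGAT1i raised it 3.49-fold in M0 (log2 change 1.80, SE 0.40, edgeR adjusted p = 0.0072) and 1.5-fold in IFNγ + LPS (log2 change 0.58, SE 0.13, edgeR adjusted p = 0.00749). In a fit of only the 6 IFNγ + LPS libraries the last value was 0.60 with an edgeR adjusted p of 0.0743, so that call depends on the spread borrowed from the other groups. The smaller log2 rise in stimulated than in resting cells, a difference of -1.22 (SE 0.43), did not pass the test (edgeR adjusted p = 0.0784), whereas it did in DESeq2 (adjusted p = 1.65e-04) and without a filter on low counts (edgeR adjusted p = 2.16e-07). With the replicate number as a block the difference passed as well (edgeR adjusted p = 6.99e-06). It also passed without IFNγ + LPS replicate 1 (edgeR adjusted p = 0.0194), IFNγ + LPS replicate 2 (edgeR adjusted p = 1.08e-04) or IFNγ + LPS + DGAT1i replicate 1 (edgeR adjusted p = 0.00317), and not in the other 9 fits that leave out a library.

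Slc3a2, the heavy chain that carries the Slc7a11 protein to the cell surface, held 197 ± 3.62 CPM in M0 (SD, n = 3). Its level was 633 ± 40.8 CPM in IFNγ + LPS, 255 ± 11.6 CPM in M0 with DGAT1i and 670 ± 22.8 CPM in IFNγ + LPS with DGAT1i. Slc3a2 rose with stimulation (log2 change 1.69, edgeR adjusted p = 1.82e-34) and with DGAT1i in M0 (log2 change 0.38, edgeR adjusted p = 1.74e-07). By DGAT1i in IFNγ + LPS its log2 change was 0.08, which did not pass the test. Slc7a5, which pairs with the same heavy chain to carry large neutral amino acids, went the other way from Slc7a11: it fell by 1.81 on the log2 scale with DGAT1i in IFNγ + LPS, from 9.68 ± 1.84 to 2.69 ± 0.816 CPM (edgeR adjusted p = 9.95e-08).

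The subunits of glutamate-cysteine ligase, the rate-limiting enzyme of glutathione synthesis, did not move alike. The modifier subunit Gclm (ENSMUSG00000028124, chr3:122245557-122270732, plus strand), which makes the enzyme more efficient, held 46.9, 44.6 and 48.3 CPM in M0 and 274, 257 and 277 CPM in IFNγ + LPS. With DGAT1i it held 131, 133 and 128 CPM in M0 and 545, 502 and 487 CPM in IFNγ + LPS. Its 4 groups did not overlap, and the spread within a group was small beside the steps between them. Gclm rose 5.78-fold with stimulation (log2 change 2.53, SE 0.06, edgeR adjusted p = 5.09e-40), 2.81-fold with DGAT1i in M0 (log2 change 1.49, SE 0.06, edgeR adjusted p = 8.98e-26) and 1.90-fold with DGAT1i in IFNγ + LPS (log2 change 0.93, SE 0.05, edgeR adjusted p = 6.82e-21). The log2 rise with DGAT1i was smaller by 0.56 (SE 0.08) in stimulated than in resting cells, a difference of -0.56 that passed the test (edgeR adjusted p = 7.86e-07).

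The catalytic subunit Gclc (ENSMUSG00000032350, chr9:77754535-77794485, plus strand) held 51.4, 57.3 and 50.8 CPM in M0 and 53.9, 61.0 and 57.5 CPM in IFNγ + LPS. These groups overlapped, and the log2 change by stimulation of 0.11 (SE 0.08) did not pass the test (edgeR adjusted p = 0.186). With library size as the only scaling it was -0.36, where the median of all genes was -0.46. DGAT1i gave 64.8, 58.9 and 64.9 CPM in M0, just above the M0 libraries, and 93.2, 82.4 and 86.9 CPM in IFNγ + LPS, well above all others. In IFNγ + LPS the rise was 1.52-fold (log2 change 0.60, SE 0.08, edgeR adjusted p = 7.58e-09). In M0 the log2 change was 0.24 (SE 0.07, edgeR adjusted p = 0.0106), and it lost the call in DESeq2 (adjusted p = 0.0875) and without M0 replicate 1 or 3 or M0 + DGAT1i replicate 1 or 3 (edgeR adjusted p from 0.0515 to 0.0586). The log2 response to DGAT1i was larger by 0.36 (SE 0.11) in stimulated cells (edgeR adjusted p = 0.0114), a call that was lost without M0 replicate 2 (edgeR adjusted p = 0.0569).

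Per length of exon, the ratio of Gclm to Gclc RNA was 0.546, 0.466 and 0.569 in the M0 libraries, so the catalytic subunit was the more abundant RNA at rest. With DGAT1i at rest it was 1.21, 1.35 and 1.18. After stimulation it was 3.04, 2.52 and 2.88 without and 3.50, 3.65 and 3.36 with DGAT1i. The 4 groups did not overlap. The mean log2 ratio was -0.93 ± 0.15 (SD, n = 3) in M0 and 1.81 ± 0.06 (SD, n = 3) in IFNγ + LPS with DGAT1i. With the longest transcript as the length these means were -0.90 and 1.84. The ratio is of RNA levels, and protein was not measured in these files. Some reads of Gclm could belong to Gm17494 or Gm6061, which share 296 and 244 exon bases with it but held 51 and 32 reads over the 12 libraries, against 15253 for Gclm.

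**Figure D2:**
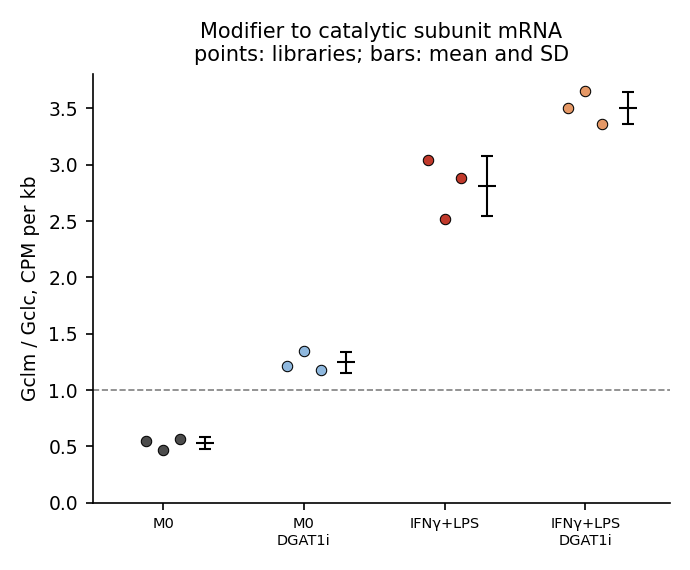
Ratio of Gclm to Gclc in CPM per kb of exon (linear axis from 0), with 1 point per library in 4 groups of 3, bars for mean and SD, and a dashed line at a ratio of 1. The M0 libraries lie below the line, at 0.466 to 0.569, and all other libraries above it.

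Gss (ENSMUSG00000027610, chr2:155563181-155592810, minus strand) encodes glutathione synthetase, which adds glycine in the last step of synthesis. It held 8.43, 11.1 and 9.75 CPM in M0 and 31.4, 23.2 and 27.2 CPM in IFNγ + LPS. With DGAT1i it held 10.9, 11.9 and 13.2 CPM in M0, where the groups overlapped, and 54.1, 43.8 and 50.7 CPM in IFNγ + LPS, above all other libraries. Gss rose 2.77-fold with stimulation (log2 change 1.47, SE 0.13, edgeR adjusted p = 1.49e-14) and 1.83-fold with DGAT1i in IFNγ + LPS (log2 change 0.87, SE 0.11, edgeR adjusted p = 4.39e-09). In M0 the log2 change by DGAT1i was 0.30 (SE 0.15) and did not pass the test (edgeR adjusted p = 0.147). The difference between the responses to DGAT1i was 0.57 (SE 0.19, edgeR adjusted p = 0.0221), and it lost the call in DESeq2 (adjusted p = 0.0782) and without M0 replicate 2, IFNγ + LPS replicate 2, M0 + DGAT1i replicate 1 or IFNγ + LPS + DGAT1i replicate 1 (edgeR adjusted p from 0.0571 to 0.112).

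Gss shares 395 exon bases with Acss2, which encodes an acetyl-CoA synthetase on the opposite strand. Acss2 held 2.33 ± 0.692 CPM in M0, 20.9 ± 1.28 CPM in IFNγ + LPS, 3.82 ± 0.913 CPM in M0 with DGAT1i and 40.7 ± 1.34 CPM in IFNγ + LPS with DGAT1i (SD, n = 3). Acss2 therefore stood in the same order of groups as Gss, with a log2 change of 3.16 by stimulation and 0.96 by DGAT1i in IFNγ + LPS. The labels and the study's methods name different library kits, of which the latter marks the strand, and the strand setting of the counting is not given in the sources used here. How far reads of Acss2 enter the Gss values was not tested.

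Gsr (ENSMUSG00000031584, chr8:33652523-33698163, plus strand) encodes glutathione reductase, which turns oxidised glutathione back to its reduced form. It held 47.9, 50.5 and 49.0 CPM in M0 and 265, 283 and 264 CPM in IFNγ + LPS. With DGAT1i it held 76.6, 71.3 and 70.3 CPM in M0 and 268, 236 and 249 CPM in IFNγ + LPS. The resting groups did not overlap, whereas the stimulated ones did. Gsr rose 5.50-fold with stimulation (log2 change 2.46, SE 0.06, edgeR adjusted p = 2.02e-39) and 1.48-fold with DGAT1i in M0 (log2 change 0.57, SE 0.07, edgeR adjusted p = 1.53e-09). With DGAT1i in IFNγ + LPS its log2 change was -0.11 (SE 0.06, edgeR adjusted p = 0.142), which became -0.16 and passed the test without IFNγ + LPS + DGAT1i replicate 1 (edgeR adjusted p = 0.0351). The difference between the responses was -0.67 (SE 0.09, edgeR adjusted p = 3.93e-08), with the larger response at rest, whereas Gclc and Gss had theirs after stimulation.

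Neither Gpx gene of the set rose with stimulation alone, and both fell with DGAT1i at rest. Gpx1 (ENSMUSG00000063856, chr9:108338903-108340343, plus strand) encodes a soluble selenoprotein that removes hydrogen peroxide. It was highest in M0, at 312, 295 and 276 CPM, and lower in IFNγ + LPS, at 205, 208 and 199 CPM. DGAT1i gave 174, 175 and 180 CPM in M0 and 167, 150 and 157 CPM in IFNγ + LPS, below every library without DGAT1i. The log2 change was -0.53 (SE 0.05) by stimulation (edgeR adjusted p = 7.64e-13), -0.74 (SE 0.05) by DGAT1i in M0 (edgeR adjusted p = 5.67e-17) and -0.37 (SE 0.06) by DGAT1i in IFNγ + LPS (edgeR adjusted p = 1.21e-06). The fall with DGAT1i was less steep in stimulated cells, with a difference between the responses of 0.37 (SE 0.08, edgeR adjusted p = 3.86e-04).

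Gpx4 (ENSMUSG00000075706, chr10:80047166-80056439, plus strand) encodes the selenoprotein that removes peroxides from membrane phospholipids. It held 144, 140 and 135 CPM in M0 and 127, 152 and 136 CPM in IFNγ + LPS, which overlapped (log2 change -0.01, SE 0.06, edgeR adjusted p = 0.881). DGAT1i gave 116, 114 and 119 CPM in M0, the lowest of all groups, and 165, 144 and 162 CPM in IFNγ + LPS, which overlapped with IFNγ + LPS alone. In M0 the log2 change by DGAT1i was -0.26 (SE 0.06, edgeR adjusted p = 7.06e-04). In IFNγ + LPS it was 0.18 (SE 0.06, edgeR adjusted p = 0.0294), which lost the call in DESeq2 (adjusted p = 0.0957), without a filter on low counts (edgeR adjusted p = 0.172), and without IFNγ + LPS replicate 1 or 3 or IFNγ + LPS + DGAT1i replicate 1 or 3 (edgeR adjusted p from 0.102 to 0.233). The difference between the responses was 0.44 (SE 0.09, edgeR adjusted p = 1.66e-04). The pseudogenes Gpx4-ps2 and AC122253.3 match 73.7% and 50.9% of the longest Gpx4 transcript at 95% identity or more, so the share of reads that the counting could assign to Gpx4 is uncertain.

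Both transferases with enough reads for a test rose with DGAT1i at rest and after stimulation. Gstm1 (ENSMUSG00000058135, chr3:108012255-108017973, minus strand), a soluble transferase of the mu class, held 82.5, 76.8 and 89.5 CPM in M0 and 135, 135 and 114 CPM in IFNγ + LPS. With DGAT1i it held 168, 173 and 163 CPM in M0 and 180, 173 and 178 CPM in IFNγ + LPS. All libraries with DGAT1i were above all libraries without it. Gstm1 rose with stimulation (log2 change 0.62, SE 0.07, edgeR adjusted p = 1.50e-12), with DGAT1i in M0 (2.03-fold, log2 change 1.02, SE 0.06, edgeR adjusted p = 7.47e-20) and with DGAT1i in IFNγ + LPS (1.38-fold, log2 change 0.47, SE 0.06, edgeR adjusted p = 2.87e-08). The response to DGAT1i was smaller in stimulated cells, by a log2 difference of -0.55 (SE 0.09, edgeR adjusted p = 3.98e-06). Between the groups with DGAT1i, stimulation changed Gstm1 by a log2 value of 0.07, which did not pass the test (SE 0.06, edgeR adjusted p = 0.266). The pseudogene Gstm2-ps1, which matches 51.0% of the longest transcript, held 31 reads over the 12 libraries.

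Mgst1 (ENSMUSG00000008540, chr6:138140316-138156755, plus strand) encodes a transferase and peroxidase of the endoplasmic reticulum and outer mitochondrial membrane. It held 45.3, 38.2 and 50.1 CPM in M0 and 111, 111 and 103 CPM in IFNγ + LPS. DGAT1i gave 87.9, 84.6 and 84.2 CPM in M0 and 242, 212 and 218 CPM in IFNγ + LPS, and the 4 groups did not overlap. Mgst1 rose 2.44-fold with stimulation (log2 change 1.28, SE 0.08, edgeR adjusted p = 4.14e-22), 1.92-fold with DGAT1i in M0 (log2 change 0.94, SE 0.07, edgeR adjusted p = 1.90e-15) and 2.06-fold with DGAT1i in IFNγ + LPS (log2 change 1.05, SE 0.07, edgeR adjusted p = 5.36e-19). The difference between its responses to DGAT1i was 0.10 (SE 0.10, edgeR adjusted p = 0.532), and with a leave-one-out range of 0.01 to 0.20 no difference was detectable here. Gsta4 (ENSMUSG00000032348, chr9:78182774-78209349, plus strand), a transferase for the lipid peroxidation product hydroxynonenal, was not tested. Over the 3 libraries of a group it held 1 read in M0, 1 in IFNγ + LPS, 1 with DGAT1i at rest and 0 in IFNγ + LPS with DGAT1i, where a count of 0 allows up to 0.215 CPM by counting error alone.

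The responses to DGAT1i at rest and after stimulation were compared member by member. The difference between them passed the test for 7 of 9 members, against 18.5% of all genes tested. The response was higher after stimulation for 4 of them, Gclc, Gss, Gpx1 and Gpx4, against 8.66% of all genes, and lower for 3, Gclm, Gsr and Gstm1, against 9.80% of all genes. Gpx4 was the single member whose changes had opposite signs and passed the test on both sides, with log2 changes of -0.26 at rest and 0.18 after stimulation, and the latter call was lost in DESeq2, without a filter on low counts and in 4 of the 12 fits that leave out a library. The libraries of the compared groups did not overlap for 8 of 9 members by DGAT1i in M0, against 37.8% of all genes, and for 7 of 9 by DGAT1i in IFNγ + LPS, against 39.7%.

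**Figure D3:**
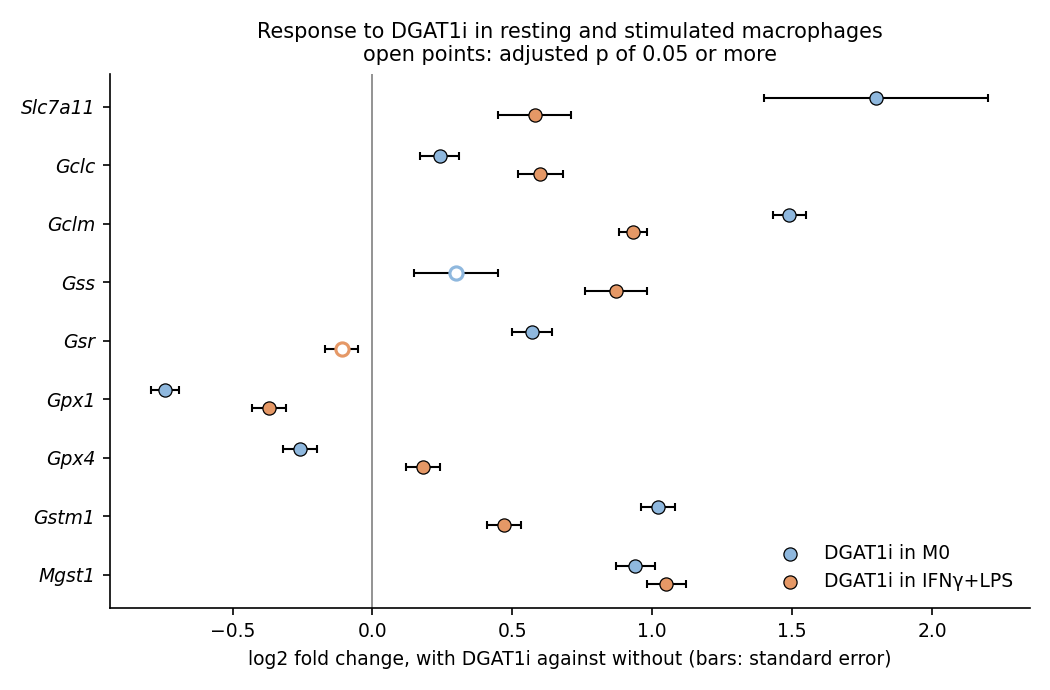
Log2 fold change with DGAT1i against without it in M0 (blue) and in IFNγ + LPS (orange) for the 9 members tested, with bars for the standard error and open points where the adjusted p was 0.05 or more. Gpx1 lies left of 0 in both, at -0.74 and -0.37, Gpx4 lies on either side of 0, and Slc7a11 in M0 has the widest bar, with an SE of 0.40.

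In cells that had DGAT1i throughout, stimulation changed 8 of the 9 members, against 70.6% of all genes. It raised 7, against 35.3% of all genes, and lowered Gpx1, against 35.3% of all genes. The libraries of the 2 groups did not overlap for 9 of the 9 members, against 72.5% of all genes. For Gstm1, which did not pass the test, they nearly touched, at 163 to 173 CPM without and 173 to 180 CPM with stimulation. Slc7a11 rose 21.3-fold (log2 change 4.41, SE 0.19, edgeR adjusted p = 2.27e-09), Gss 4.12-fold, Gclm 3.91-fold and Gsr 3.45-fold. Gclc rose by a log2 value of 0.48 (SE 0.07, edgeR adjusted p = 7.81e-08) and Gpx4 by 0.43 (SE 0.06, edgeR adjusted p = 2.76e-08). With library size as the only scaling, where the median of all genes was -0.43, these were 0.05 and 0.01 and the members split into 5 higher and 2 lower. Gpx1 fell by 0.16 on the log2 scale (SE 0.06, edgeR adjusted p = 0.0124), a call that was lost without IFNγ + LPS + DGAT1i replicate 2 (edgeR adjusted p = 0.0925).

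Levels of different genes can be compared only per length, and were taken as CPM per kb of all annotated exon. In M0, Gpx1 was the highest at 204 CPM per kb, followed by Gpx4 at 81.0, Gstm1 at 56.3, Mgst1 at 22.1, Gsr at 17.8, Gclc at 14.1, Gclm at 7.41, Gss at 1.65 and Slc7a11 at 0.188, and no neighbours in this order overlapped between libraries. In IFNγ + LPS, Gpx1 was still the highest at 141 CPM per kb, with Gsr second at 98.2, and Slc7a11 at 9.37 had passed Gss at 4.61. Gstm1 and Gpx4, at 86.9 and 80.2 CPM per kb, overlapped there. In M0 with DGAT1i, Gpx1 at 122 CPM per kb and Gstm1 at 114 led the order, and Gclm at 20.8 stood above Gclc at 16.7. In IFNγ + LPS with DGAT1i, Gstm1 at 120 CPM per kb overlapped with Mgst1 at 111, and Mgst1 with Gpx1 at 110. Gsr at 91.2, Gpx4 at 90.9 and Gclm at 81.3 CPM per kb lay below these and overlapped among themselves, and Gclc at 23.2, Slc7a11 at 13.9 and Gss at 8.37 followed apart. The order among the abundant genes depends on the length taken: with the longest transcript Gpx4 stood at 157 CPM per kb in this group, above Gpx1 at 147 and Gstm1 at 137 and below Mgst1 at 192. In IFNγ + LPS the longest transcript put Gpx4 second at 139 CPM per kb, above Gsr at 101. The order in M0 was the same with either length.

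**Figure D4:**
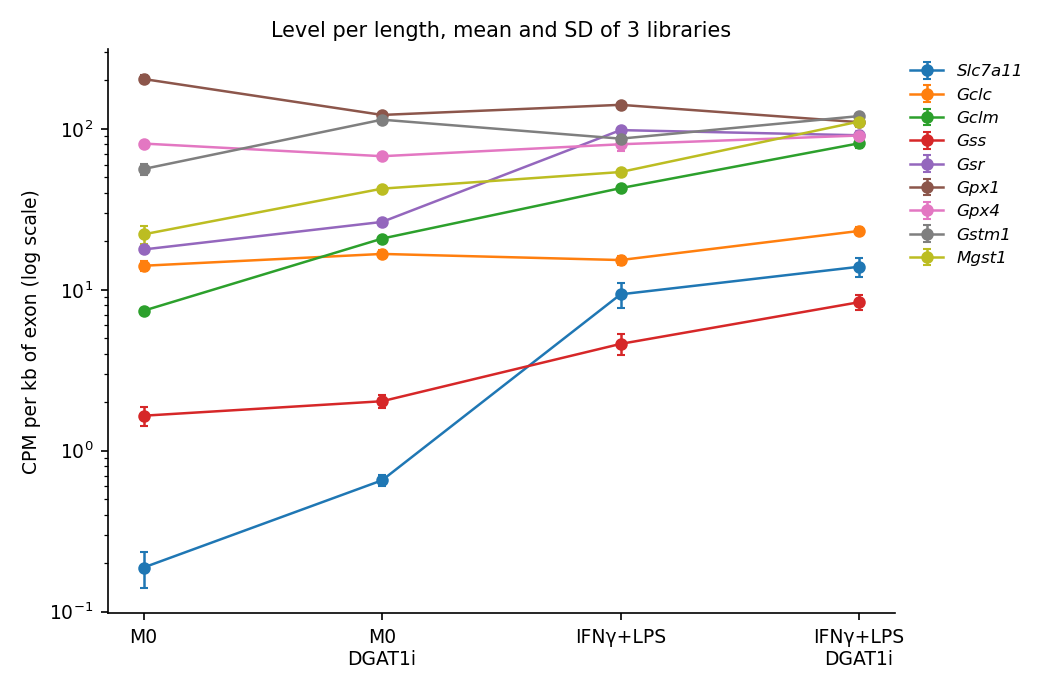
Level per length of the 9 members tested (CPM per kb of exon, log axis) in the 4 groups, as mean and SD of 3 libraries, with lines that join the groups of 1 gene. The members span 0.188 to 204 CPM per kb in M0 and 8.37 to 120 CPM per kb in IFNγ + LPS with DGAT1i.

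Other genes around glutathione were described by 8 lists. Beside their counts stand the shares of all genes: IFNγ + LPS raised 37.1% and lowered 36.2%, DGAT1i in IFNγ + LPS raised 13.5% and lowered 16.3%, and DGAT1i in M0 raised 11.0% and lowered 13.4%. Of 16 genes for the supply of cystine and cysteine, Slc3a2 among them, 9 were tested. DGAT1i in IFNγ + LPS raised 0 of these 9 in edgeR (2 at an unadjusted p under 0.05, 0 in DESeq2) and lowered 3, Slc1a4, Slc7a5 and Mat2a, the last of which makes the methyl donor of the methionine cycle (log2 change -0.36, edgeR adjusted p = 3.66e-05). The list's median log2 change was -0.15, against -0.01 for all genes. In M0, 2 of the 9 rose and 2 fell (2 and 4 with RLE scaling or with library size only), and Slc1a5, a glutamine carrier, was lower by a log2 change of -0.51 (edgeR adjusted p = 4.17e-05). With stimulation 3 rose, Slc3a2, Slc7a8 and Mat2b, and 5 fell (2 and 6 with library size as the only scaling), with Slc1a5 at a log2 change of -2.36 (edgeR adjusted p = 7.01e-23).

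Genes for the breakdown and export of glutathione numbered 19, of which 13 were tested. DGAT1i in IFNγ + LPS raised 2 of them, Abcc1 and Abcc4 (log2 change 0.47, edgeR adjusted p = 0.00225), and lowered 3, Chac1, Ggct and Lap3, beside shares of all genes of 13.5% and 16.3%. Abcc1, an exporter of glutathione conjugates and of oxidised glutathione, went from 233 ± 21.5 to 418 ± 29.2 CPM (log2 change 0.85, SE 0.06, edgeR adjusted p = 4.00e-17). In M0 it went from 197 ± 9.43 to 243 ± 5.87 CPM (log2 change 0.31, edgeR adjusted p = 4.36e-05), and the difference between these responses was 0.54 (edgeR adjusted p = 1.65e-06). Ggct, which releases pyroglutamate from gamma-glutamyl dipeptides, rose with stimulation from 3.20 ± 0.145 to 52.6 ± 1.79 CPM (log2 change 4.03, edgeR adjusted p = 7.75e-33) and fell with DGAT1i in IFNγ + LPS to 41.0 ± 2.48 CPM (log2 change -0.36, edgeR adjusted p = 0.00279). Abcc3, another exporter of conjugates, fell with stimulation from 139 ± 6.63 to 29.9 ± 2.35 CPM (log2 change -2.21, edgeR adjusted p = 6.66e-33) and rose with DGAT1i in M0 to 186 ± 10.5 CPM (log2 change 0.42, edgeR adjusted p = 4.08e-08). Stimulation raised 6 and lowered 6 of the 13, near the shares of all genes of 37.1% and 36.2%. DGAT1i in M0 raised 3 (2 in DESeq2 and with RLE or library size scaling) and lowered 1, where 11.0% of all genes rose and 13.4% fell.

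Of 24 other transferases and related proteins, 14 were tested. DGAT1i in IFNγ + LPS raised 4 and lowered 2, and in M0 raised 3 and lowered 2, with list medians of 0.18 and 0.15. The shares of all genes were 13.5% and 16.3% in the first and 11.0% and 13.4% in the second. In DESeq2 1 rose in each state and 2 fell. Gstm4, a mu-class relative of Gstm1, went from 6.08 ± 1.29 to 11.9 ± 0.656 CPM in IFNγ + LPS (log2 change 0.96, SE 0.20, edgeR adjusted p = 1.25e-04), and Gstk1, a mitochondrial and peroxisomal transferase, from 2.42 ± 0.500 to 4.65 ± 0.474 CPM (log2 change 0.94, SE 0.30, edgeR adjusted p = 0.0136). With stimulation 9 of the 14 fell and 3 rose, where 36.2% of all genes fell and 37.1% rose. Gstt3, a theta-class transferase, went from 5.66 ± 0.479 to 1.75 ± 0.579 CPM (log2 change -1.70, edgeR adjusted p = 5.85e-07). Hpgds, which makes prostaglandin D with glutathione, went from 281 ± 4.4 to 108 ± 5.52 CPM (log2 change -1.37, edgeR adjusted p = 1.64e-27). With DGAT1i in M0, Clic4, of a chloride channel family related to the transferases, had a log2 change of -0.30 (edgeR adjusted p = 8.70e-06) and Gsto1, an omega-class transferase, of 0.21 (edgeR adjusted p = 0.0356). Larger changes there were in genes of low level. Gsta3, with 9 reads in M0, went from 0.41 ± 0.26 to 3.65 ± 0.352 CPM (log2 change 3.07, SE 0.42, edgeR adjusted p = 4.85e-08). Gstm5 went from 3.61 ± 0.261 to 5.67 ± 1.08 CPM (log2 change 0.64, SE 0.23, edgeR adjusted p = 0.0326). Gsta3 also rose with stimulation (log2 change 2.05, edgeR adjusted p = 5.28e-04) and with DGAT1i in IFNγ + LPS (log2 change 0.99, edgeR adjusted p = 0.033).

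All 5 other proteins of the MAPEG family, to which Mgst1 belongs, were tested. DGAT1i in IFNγ + LPS raised 3 and lowered 0 in edgeR, with 0 lower also at an unadjusted p under 0.05, where 13.5% of all genes rose and 16.3% fell. DESeq2 and library size scaling gave 2 higher and 0 lower, and Ptges passed in edgeR at an adjusted p of 0.0439. The list median was 0.96. Mgst3 rose from 5.11 ± 1.35 to 10.9 ± 0.920 CPM (log2 change 1.07, SE 0.19, edgeR adjusted p = 1.50e-05) and Alox5ap, which presents arachidonate for leukotriene synthesis, from 83.8 ± 4.08 to 163 ± 11.2 CPM (log2 change 0.96, SE 0.06, edgeR adjusted p = 2.90e-18). Ptges, the inducible prostaglandin E synthase, held 0.369 ± 0.290 CPM in M0 and 37.1 ± 1.07 CPM in IFNγ + LPS (log2 change 6.57, edgeR adjusted p = 1.84e-31), and rose with DGAT1i in M0 to 1.70 ± 0.828 CPM (log2 change 2.15, SE 0.49, edgeR adjusted p = 5.44e-04), where Mgst3 fell (log2 change -0.38, edgeR adjusted p = 3.49e-04). With stimulation 2 rose and 3 fell, where 37.1% of all genes rose and 36.2% fell, and Mgst3 was lower by a log2 change of -3.38 while Mgst1 was higher. Of the other glutathione peroxidases and Prdx6, only Gpx3 and Prdx6 had enough reads among 7 genes. Prdx6, which uses glutathione to reduce phospholipid peroxides, rose with stimulation from 58.5 ± 2.77 to 122 ± 7.03 CPM (log2 change 1.05, edgeR adjusted p = 1.99e-20) and with DGAT1i in M0 (log2 change 0.31, edgeR adjusted p = 3.89e-04) and in IFNγ + LPS (log2 change 0.24, edgeR adjusted p = 0.00392). Gpx3, a secreted peroxidase, fell with stimulation from 2.15 ± 0.513 to 0.728 ± 0.474 CPM (log2 change -1.57, edgeR adjusted p = 0.00285).

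Among enzymes that use glutathione as a cofactor, 11 of 12 were tested. With stimulation 3 rose and 7 fell, where 37.1% of all genes rose and 36.2% fell, and the list median was -0.40. Esd, which hydrolyses formylglutathione, rose with stimulation from 295 ± 4.05 to 1239 ± 28.9 CPM (log2 change 2.07, edgeR adjusted p = 1.28e-39) and with DGAT1i in M0 to 494 ± 4.68 CPM (log2 change 0.74, SE 0.05, edgeR adjusted p = 1.17e-17). Glrx, a glutaredoxin that removes glutathione from proteins, rose with stimulation from 55.6 ± 1.62 to 184 ± 13.5 CPM (log2 change 1.72, edgeR adjusted p = 3.26e-31) and fell with DGAT1i in M0 (log2 change -0.23, edgeR adjusted p = 0.0137) and in IFNγ + LPS (log2 change -0.36, edgeR adjusted p = 5.29e-06). DGAT1i raised 3 and lowered 2 of the list in IFNγ + LPS (2 and 1 in DESeq2), and raised 3 and lowered 1 in M0 (1 and 1 in DESeq2 and with library size only), beside shares of all genes of 13.5% and 16.3% in IFNγ + LPS and of 11.0% and 13.4% in M0. With DGAT1i in IFNγ + LPS, Ethe1, a mitochondrial persulfide dioxygenase, had a log2 change of 0.64 (edgeR adjusted p = 0.00593) and Hagh, a hydrolase of the glyoxalase pathway, of -0.60 (edgeR adjusted p = 0.0245). Glrx2, a mitochondrial glutaredoxin, had one of 0.30 in M0 (edgeR adjusted p = 0.0366). The machinery that inserts selenocysteine, on which Gpx1 and Gpx4 depend, held 9 genes, all tested. DGAT1i lowered 3 of them in IFNγ + LPS (1 in DESeq2) and 1 in M0, and raised 0 in either state in edgeR and in DESeq2, where 16.3% and 13.4% of all genes fell and 13.5% and 11.0% rose. At an unadjusted p under 0.05 edgeR had 1 higher in IFNγ + LPS and 0 in M0, and the list medians were -0.20 and 0.06. Eefsec, the elongation factor for selenocysteine, went from 27.2 ± 2.72 to 14.5 ± 2.27 CPM in IFNγ + LPS (log2 change -0.90, SE 0.13, edgeR adjusted p = 2.98e-07), and Sephs1, a selenophosphate synthetase relative, from 36.3 ± 1.5 to 24.4 ± 1.64 CPM in M0 (log2 change -0.57, SE 0.10, edgeR adjusted p = 7.34e-06). Secisbp2, which binds the selenocysteine insertion element, had a log2 change of -0.26 with DGAT1i in IFNγ + LPS (edgeR adjusted p = 0.0479). With stimulation 2 of the 9 rose and 3 fell (1 and 7 with library size as the only scaling), with Sephs1 at -0.98 (edgeR adjusted p = 2.14e-11) and Eefsec at 0.74 (edgeR adjusted p = 2.40e-07).

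Known regulators of the pathway numbered 13, of which 12 were tested. Stimulation raised 10, where 37.1% of all genes rose, among them Keap1, Bach1 and Atf4, and lowered Nfe2l2, which encodes NRF2, from 200 ± 9.71 to 175 ± 4.64 CPM, and the median log2 change was 1.62. Cebpb, a transcription factor of inflammatory activation, had the largest rise past the threshold, from 23.5 ± 8.53 to 254 ± 22.8 CPM (log2 change 3.43, SE 0.25, edgeR adjusted p = 1.62e-06), followed by Trib3, a pseudokinase induced by ATF4 (log2 change 3.28, edgeR adjusted p = 6.39e-21). DGAT1i in IFNγ + LPS raised 1, Bach1, and lowered 6 (4 in DESeq2), where 13.5% of all genes rose and 16.3% fell. In that comparison Ddit3 had a log2 change of -0.54 (SE 0.09, edgeR adjusted p = 9.70e-07) and Trib3 of -0.42 (SE 0.14, edgeR adjusted p = 0.0207). In M0, DGAT1i raised 4 and lowered 0 in edgeR and in DESeq2 (5 and 0 in edgeR at an unadjusted p under 0.05), while library size as the only scaling gave 3 higher and 1 lower. Of all genes 11.0% rose and 13.4% fell there. In M0 Trib3 was among those that rose, going from 2.79 ± 1.2 to 7.46 ± 2.34 CPM (log2 change 1.39, SE 0.23, edgeR adjusted p = 6.75e-06) and Mafg, a partner of NRF2, from 118 ± 7.00 to 150 ± 1.47 CPM (log2 change 0.34, SE 0.06, edgeR adjusted p = 2.55e-06). The difference between the responses was -1.80 for Trib3 (edgeR adjusted p = 2.04e-06) and -0.63 for Atf4 (edgeR adjusted p = 1.74e-08). These are RNA levels, and the activity of NRF2 and ATF4 is set largely after transcription.

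**Figure D5:**
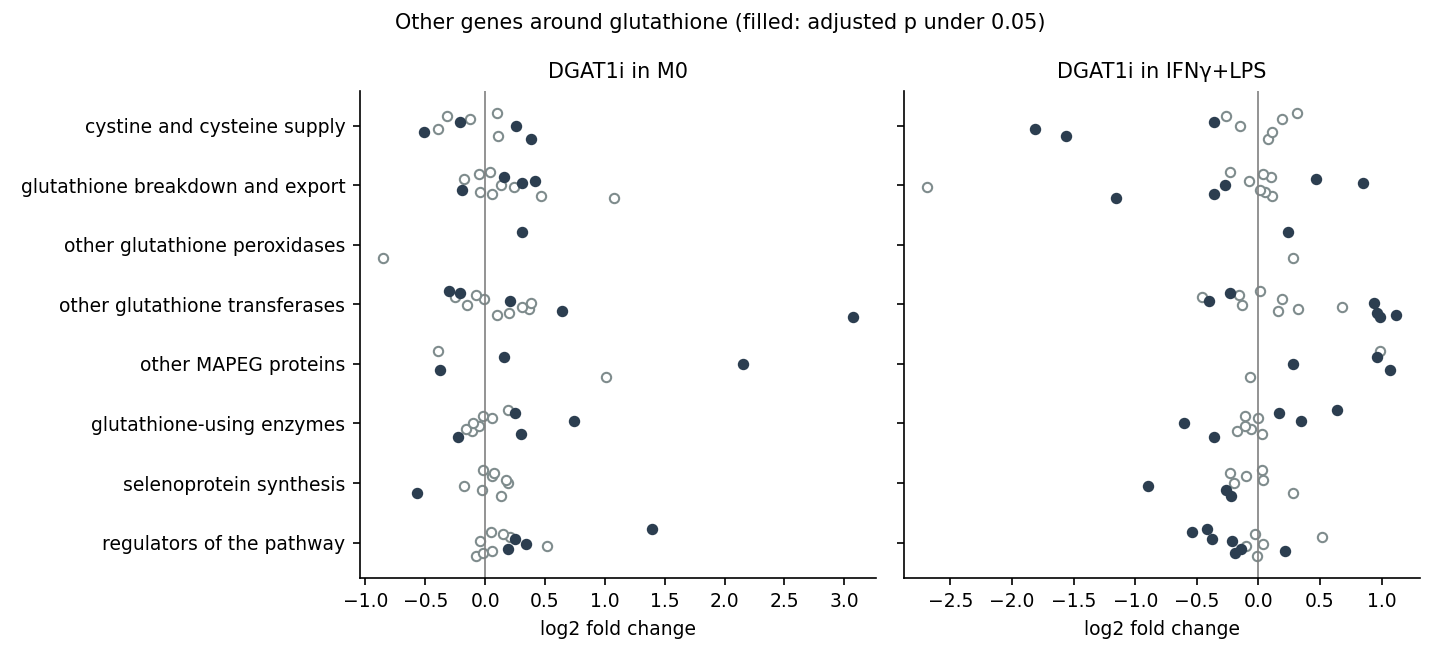
Log2 fold change with DGAT1i against without it for the tested genes of 8 lists around glutathione, in M0 (left) and in IFNγ + LPS (right), with 1 point per gene, filled where the adjusted p was under 0.05. Mgst3, Alox5ap and Ptges lie right of 0 after stimulation, and 6 of the 12 regulators tested are filled points left of 0 there.

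The genes whose pattern was most like that of Slc7a11 were found by the root mean square (RMS) difference in log2 CPM, centred on the mean of each gene, over the 12 libraries and among 10171 genes. Clec4n, a receptor for fungal mannans, was the nearest with an RMS difference of 0.41, and held 1.35 CPM in M0, 7.07 in M0 with DGAT1i, 48.5 in IFNγ + LPS and 103 in IFNγ + LPS with DGAT1i. Ptges followed at 0.42, and Pdpn, a membrane mucin, at 0.55, with 2.08, 6.40, 54.1 and 147 CPM in the same order of groups. Ly75, an endocytic receptor, and Jdp2, a transcription factor of the AP-1 family, both stood at 0.59. Ly75 did not pass the test with DGAT1i in either state, and Jdp2 was higher with it in M0 (log2 change 0.51, edgeR adjusted p = 0.0211) and lower in IFNγ + LPS (log2 change -0.32, edgeR adjusted p = 3.39e-05).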

How the data were processed

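The authors deposited raw read counts per gene, without normalization, made by the pipeline of their institute. Their processing notes name GRCm38 and DESeq2, while the sources used here do not give the aligner, counting tool, strand setting or annotation. Of 47937 identifiers, 47310 matched GENCODE release M21 without their version. edgeR 4.0.16 (R 4.3.3) filtered genes with filterByExpr, scaled the libraries by TMM and fitted 1 mean per group to all 12 libraries (glmQLFit, robust). Benjamini-Hochberg adjustment ran over the 11760 genes tested, and an adjusted p under 0.05 was taken as a change. The tests were checked on simulated counts. After TMM scaling of the library totals, 1 CPM stood for 4.28 to 7.58 reads. Near-identical copies of members were those that BLAST 2.17.0 aligned to at least 20% of the longest transcript with 95% identity. Alternatives were other scalings, other filters on low counts, DESeq2 1.42.0, fits of the 6 libraries compared, the replicate number as a block, each library left out in turn, and the longest transcript as the length.

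Named genes are the 10 members, the 2 largest changes past the threshold per list and comparison at an average log2 CPM of at least 2, the 5 genes most like Slc7a11, and copies of a member. Of the list genes, those of stimulation and of DGAT1i in each state are printed in full, and those of the other contrasts and of marker lists in part. Slc7a8, Mat2b, Slc1a4, Gpx3, Gsta3, Gstm5, Chac1, Lap3, Keap1, Bach1, Nfe2l2, marker genes and genes that overlap a member were named after their values were seen. The members and lists were chosen with earlier results of these data known. No column of a comparison made by the authors was used.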

Additional observations from a re-analysis of the deposited data

Results flagged for a closer look

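The response to DGAT1i differed between stimulated and resting cells for 7 members by the interaction term of edgeR's quasi-likelihood test. The log2 response was higher after stimulation by 0.36 for Gclc (SE 0.11, edgeR adjusted p = 0.0114), 0.57 for Gss (SE 0.19, edgeR adjusted p = 0.0221), 0.37 for Gpx1 (SE 0.08, edgeR adjusted p = 3.86e-04) and 0.44 for Gpx4 (SE 0.09, edgeR adjusted p = 1.66e-04). The difference was -0.56 for Gclm (SE 0.08, edgeR adjusted p = 7.86e-07), -0.67 for Gsr (SE 0.09, edgeR adjusted p = 3.93e-08) and -0.55 for Gstm1 (SE 0.09, edgeR adjusted p = 3.98e-06). Of all genes tested, 18.5% passed the same test. The Gclc call was lost without M0 replicate 2 (edgeR adjusted p = 0.0569), and the Gss call in DESeq2 (adjusted p = 0.0782) and without M0 replicate 2, IFNγ + LPS replicate 2, M0 + DGAT1i replicate 1 or IFNγ + LPS + DGAT1i replicate 1 (edgeR adjusted p from 0.0571 to 0.112). Both subunits of glutamate-cysteine ligase rose with DGAT1i in each state, by log2 values of 0.24 at rest and 0.60 after stimulation for Gclc and of 1.49 and 0.93 for Gclm. The call for Gclc at rest was lost in DESeq2 (adjusted p = 0.0875), with library size as the only scaling and in 4 of the 12 fits that leave out a library.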

How the results depend on the processing

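Every member tested kept its direction and its side of the threshold in all comparisons with RLE scaling and with a filter at a mean CPM of 1. With library size as the only scaling, 3 members rather than 1 were lower by IFNγ + LPS and 2 rather than 1 by IFNγ + LPS in the presence of DGAT1i: Gclc turned to -0.36 in the first (edgeR adjusted p = 5.96e-05), where Gpx4 was -0.48, and Gstm1 to -0.35 in the second (edgeR adjusted p = 8.61e-07). This scaling moves the median of all genes to -0.46 and -0.43, and these values carry that common shift. When each library was left out in turn, members lower by DGAT1i in IFNγ + LPS numbered 1 to 2, members lower by IFNγ + LPS with DGAT1i 0 to 1 and members with a higher response after stimulation 2 to 4. The log2 change of Gpx4 by IFNγ + LPS, which never passed the test there, ranged from -0.08 to 0.05 over these fits. The same fits gave -0.07 to 0.17 for Ly75 by DGAT1i in IFNγ + LPS and -0.41 to 0.29 for Pdpn in the difference between the responses.

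Libraries with the same replicate number formed 18 pairs, and 0 of these had a correlation of deviations above 0.1. Their range was -0.0217 to 0.0687, where pairs with different numbers ranged from -0.058 to 0.0381. Between IFNγ + LPS without and with DGAT1i the same-number pairs had 0.0687, 0.0394 and 0.0356. Between M0 and IFNγ + LPS with DGAT1i the same-number pairs had -0.015, -0.0171 and -0.0127. Whether equal numbers mark paired cultures was not tested. With the replicate number as a block, 4 members rather than 3 had a lower response after stimulation, as Slc7a11 passed the test at -1.22 (edgeR adjusted p = 6.99e-06), and the other counts of members did not change. At this depth Slc7a11 in M0 rests on 56 reads in all, and Gsta4 cannot be tested.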
